A study of Mus musculus with 9 samples.

Results

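The lysosome is the acidic compartment in which cells break down proteins, sugars, lipids and nucleic acids. Its soluble enzymes, called acid hydrolases, reach it mostly on mannose 6-phosphate receptors, and the vacuolar proton pump (V-ATPase) keeps it acidic with a cytosolic V1 sector that burns ATP and a membrane V0 sector that carries protons. In myeloid cells the same compartment degrades engulfed material, and TFEB and related transcription factors bind a short element in many lysosomal promoters. The genes described here are lysosomal enzymes, membrane proteins and regulators given by name, together with every gene whose symbol starts with Atp6v. Of 42 named genes 41 had a probe set with a single gene symbol, and Cd63, a membrane tetraspanin, was not analysed here. With 20 Atp6v genes this gave 61 genes of the 17731 tested, each with 1 probe set.

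Bone marrow cells of C57BL6 mice, immortalised with the homeobox oncogene HoxA9 in every group, received a retroviral vector and were transplanted into irradiated mice, and GFP-positive marrow cells were sorted 4 weeks later. IDH1mut cells carried pSF91-IDH1mut-IRES-GFP, IDH1wt cells carried pSF91-IDH1wt-IRES-EGFP, and CTL cells carried the empty EGFP vector, with 3 arrays in each group. IDH1 is the cytosolic isocitrate dehydrogenase, whose cancer mutants make 2-hydroxyglutarate. The amino acid change, the species of the IDH1 sequence, the age of the animals and whether the arrays of a group came from separate mice are not given in the sources used here, so p-values measure the spread between these samples, which may be technical.

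Expression was measured on 9 Affymetrix mouse arrays and deposited as log2 values made with RMA, which give no detection call. Array medians lay between 4.65 and 4.72, and arrays of the same group correlated at 0.992 to 0.997 over genes. Genes of blood cells were read as a description, which cannot show that the cells came from marrow. Over the IDH1mut, IDH1wt and CTL groups the common leukocyte antigen Ptprc averaged 6.63, 6.31 and 6.17, the myeloid factor Spi1 averaged 10.25, 9.97 and 9.99, and the granule enzyme Mpo averaged 12.69, 13.35 and 13.31. On the arrays' brightness scale, which does not rank transcripts of different genes, the 61 lysosome genes had a median of 8.07 against 4.94 over all genes, and 49 of them lay above the median gene. Their residual SD between arrays of a group had a median of 0.135, against 0.127 for all genes above the median level.

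Markers of blood cell types differed between the groups and are given here because lysosomal genes are expressed unequally among such cells. A gene was called when its adjusted p, from limma's moderated test with Benjamini-Hochberg adjustment over the 17731 genes, was under 0.05, and in IDH1mut against CTL 20.7% of all genes were called, 10.1% higher and 10.6% lower. In that comparison 8 of 9 measured erythroid genes were higher and 0 lower, and 9 of 13 late neutrophil genes were higher and 0 lower. Of 8 measured primary granule and promyelocyte genes 0 were higher and 8 lower, and of 10 monocyte genes 0 were higher and 4 lower. Of 16 macrophage genes 4 were higher and 2 lower. Leaving out CTL replicate 2 or IDH1mut replicate 3 left 5 erythroid genes called, and leaving out IDH1mut replicate 1 gave 8 monocyte genes.

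The summed linear levels of these lists show the same groups on single arrays. The erythroid sum was 3575 to 4100 in IDH1mut, 949 to 3582 in IDH1wt and 1203 to 1462 in CTL arrays. The sum of the primary granule and promyelocyte list was 22251 to 23176 in IDH1mut, 36205 to 40544 in IDH1wt and 39509 to 41694 in CTL arrays. The late neutrophil sum was 117648 to 122277 in IDH1mut, 96062 to 97250 in IDH1wt and 95175 to 99179 in CTL arrays. No array listed a value of 0, and 1 of the 9 erythroid and 4 of the 16 macrophage genes lay at or below the level of the median gene. The part these markers have in the lysosomal differences was not tested, and in bulk samples fewer cells of a type and less RNA per cell cannot be told apart.

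Of the 61 lysosome genes 14 changed in IDH1mut cells relative to CTL cells, in both directions. In IDH1mut cells the alpha-glucosidase gene Gaa, the beta-galactosidase gene Glb1, the alpha-galactosidase gene Gla, Naglu, Arsb, Ctsb, Ctsz and Gm2a were lower. The alpha-mannosidase gene Man2b1, the proteases Ctse, Lgmn and Ctsk and the proton pump genes Atp6v1g1 and Atp6v1d were higher. The comparison with CTL asks how cells with the mutant enzyme differed from cells with none added, and the comparison with IDH1wt sets them against cells with the normal enzyme added. All adjusted p-values come from the limma fit named above, and a difference is between group means of log2 values, given with its standard error (SE).

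Against the background of all genes the number called was not large. Of all 17731 genes 20.7% were called in IDH1mut against CTL, with 10.1% higher and 10.6% lower. Of the lysosome genes 23.0% were called, 6 higher and 8 lower, and their median difference was -0.06 against -0.04 over all genes. Among genes above the median level 35.1% were called, and of the 49 lysosome genes there 14 were called, or 28.6%. A share of 23.0% beside 20.7% is near the background and says nothing particular about lysosomal genes. Leaving out single arrays gave between 11 and 16 called members. At an unadjusted p under 0.05, 7 members were higher and 17 lower, beside 2529 higher and 3192 lower of the 17731 genes.

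**Figure D1:**
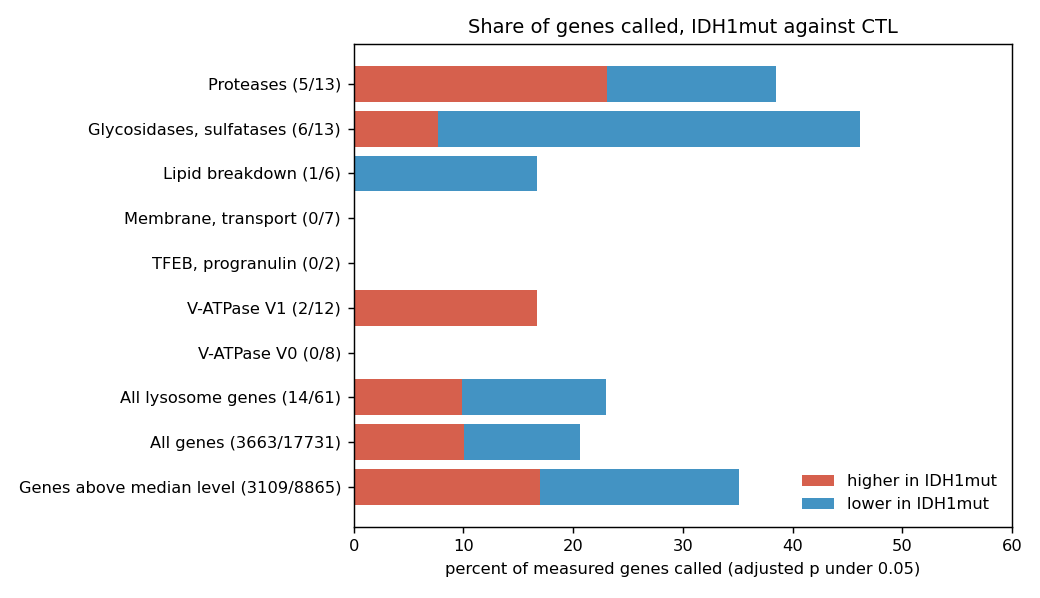
Percent of measured genes called in IDH1mut against CTL (adjusted p under 0.05), split into genes higher and genes lower in IDH1mut, for all genes and for the groups of lysosomal genes. Of the members the glycosidases and sulfatases had 1 gene higher and 5 lower, and the membrane proteins and V0 subunits had none called.

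The enzymes that remove sugars and sulfate groups held 6 of the 14 calls. Of 13 glycosidases and sulfatases 5 fell and 1 rose in IDH1mut against CTL. This was 46.2%, beside 20.7% of all genes and 35.1% of genes above the median level. Their median difference was -0.26 against -0.04 over all genes. Gaa encodes acid alpha-glucosidase, which breaks down lysosomal glycogen. It read 7.17, 7.09 and 7.22 on the IDH1mut arrays, 7.97, 8.14 and 8.01 on the IDH1wt arrays and 7.95, 7.95 and 8.08 on the CTL arrays. All 3 IDH1mut arrays lay below all 6 others, while IDH1wt and CTL arrays overlapped. The difference from CTL was -0.83 ± 0.09, or 1.78-fold lower (adjusted p = 0.000165).

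Glb1, beta-galactosidase, cleaves galactose from gangliosides and keratan sulfate. Its values were 7.77, 7.74 and 7.91 in IDH1mut, 8.53, 8.35 and 8.42 in IDH1wt and 8.53, 8.40 and 8.48 in CTL cells, again with the IDH1mut arrays apart from the rest. IDH1mut cells were 1.58-fold below CTL cells (-0.66 ± 0.09, adjusted p = 0.000669). Gla, alpha-galactosidase A, takes galactose off globotriaosylceramide. It read 6.77, 6.60 and 6.31 in IDH1mut, 7.35, 6.98 and 7.08 in IDH1wt and 7.27, 7.18 and 7.33 in CTL cells. The IDH1mut arrays were the 3 lowest, and the difference from CTL was -0.70 ± 0.13 (1.63-fold lower, adjusted p = 0.00334).

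Naglu and Arsb take part in the stepwise removal of sugar and sulfate from glycosaminoglycans. Naglu, an enzyme of heparan sulfate breakdown, read 7.05, 6.57 and 6.62 in IDH1mut, 7.27, 6.92 and 7.17 in IDH1wt and 7.33, 7.26 and 7.47 in CTL cells. The IDH1mut arrays overlapped those of IDH1wt and not those of CTL, with a difference from CTL of -0.61 ± 0.14 (1.52-fold lower, adjusted p = 0.0109). Arsb, the sulfatase that acts on dermatan and chondroitin sulfate, read 5.35, 5.48 and 5.31 in IDH1mut, 5.77, 5.80 and 5.65 in IDH1wt and 6.27, 5.84 and 6.31 in CTL cells. The 3 groups did not overlap and IDH1wt lay between the other two. IDH1mut was 1.7-fold below CTL (-0.76 ± 0.13, adjusted p = 0.0017), and the IDH1wt difference of -0.40 ± 0.13 did not pass the test (adjusted p = 0.137).

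Man2b1 and Manba, an alpha- and a beta-mannosidase of glycoprotein breakdown, had patterns of their own. Man2b1 read 8.48, 8.50 and 8.55 in IDH1mut, 7.76, 8.12 and 7.88 in IDH1wt and 7.47, 7.58 and 7.65 in CTL cells. The groups did not overlap, and IDH1mut was 1.93-fold above CTL (0.95 ± 0.11, adjusted p = 0.000182). Manba read 8.74, 8.67 and 8.71 in IDH1mut, 9.60, 9.27 and 9.37 in IDH1wt and 8.74, 8.73 and 8.75 in CTL cells. Here the IDH1wt arrays stood above all others and IDH1mut and CTL arrays overlapped, with a difference of -0.03 ± 0.10 between them. Each of the 6 calls of this group in IDH1mut against CTL held when any 1 array was left out.

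The other 7 enzymes of this group did not pass the test in IDH1mut against CTL. Hexa, the alpha chain of beta-hexosaminidase, averaged 11.73 ± 0.05 in IDH1mut, 11.91 ± 0.10 in IDH1wt and 11.99 ± 0.07 in CTL cells (SD, n = 3 each). Its difference from CTL was -0.26 ± 0.09 (adjusted p = 0.0711). Gusb, beta-glucuronidase, differed by -0.45 ± 0.15 (adjusted p = 0.0554). It was called under 7 of the alternatives tried, with adjusted p between 0.0159 and 0.0475, among them the fits without CTL replicate 2, IDH1wt replicate 1 or IDH1wt replicate 2. The sulfatase Arsa differed by -0.23 ± 0.10 (adjusted p = 0.119). Galns, a sulfatase of keratan sulfate breakdown, lay near the low end of the scale in every group, at means of 2.63 in IDH1mut, 2.79 in IDH1wt and 2.64 in CTL cells.

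**Figure D2:**
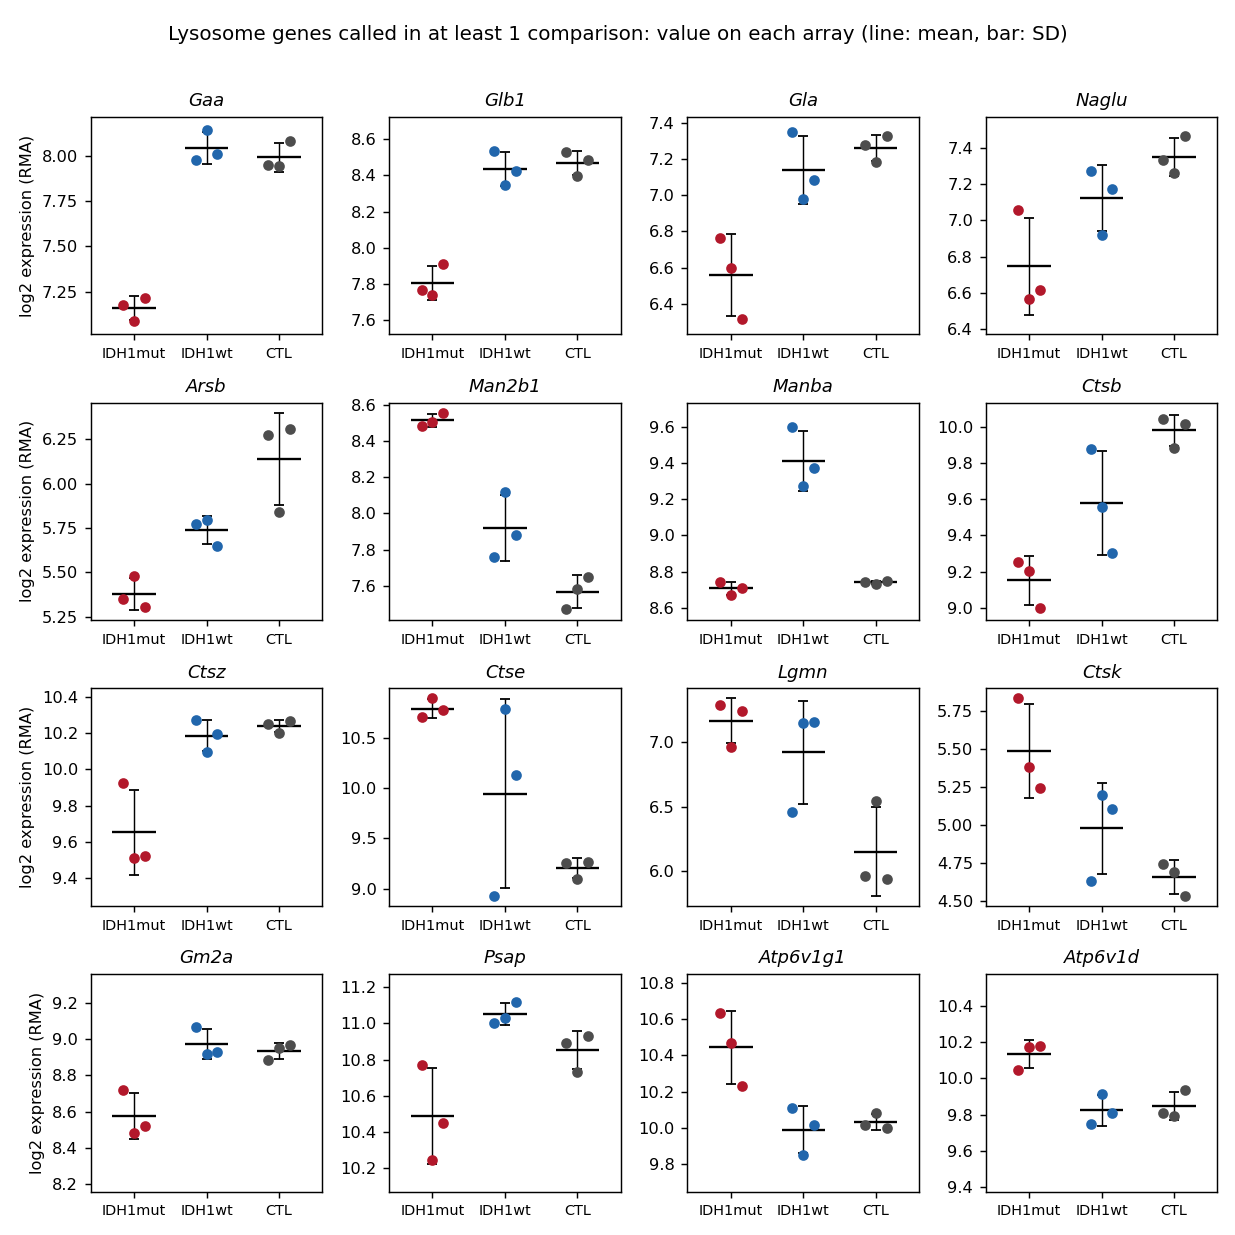
Log2 expression (RMA) on each of the 9 arrays for the 16 lysosome genes called in at least 1 of the 3 comparisons, with IDH1mut, IDH1wt and CTL from left to right in each panel; lines are group means and bars the SD (n = 3). Gaa, Glb1 and Gla show 3 low IDH1mut arrays beside 6 higher ones, Manba shows 3 high IDH1wt arrays, and Ctse shows an IDH1wt group that spans both others.

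The promoters of the enzymes that fell, except Ctsb, were read for the E-box CACGTG and for the letters TCACGTGA, the core of the element bound by TFEB. The sequences below show where these letters lie in the 4 called glycosidase genes that hold them and in Lamp1, which holds 4 copies and was not called. They are RefSeq promoters on GRCm38.p6, from 250 bases before to 50 bases after the annotated start, written 5′ to 3′ on the gene's strand, with the motif letters in capitals. Gaa lies on the plus strand at chr11:119267713-119268012, Glb1 on the plus strand at chr9:114400828-114401127 and Gla on the minus strand at chrX:134600956-134601255. Naglu lies on the plus strand at chr11:101069844-101070143 and Lamp1 on the plus strand at chr8:13158911-13159210.
Gaa: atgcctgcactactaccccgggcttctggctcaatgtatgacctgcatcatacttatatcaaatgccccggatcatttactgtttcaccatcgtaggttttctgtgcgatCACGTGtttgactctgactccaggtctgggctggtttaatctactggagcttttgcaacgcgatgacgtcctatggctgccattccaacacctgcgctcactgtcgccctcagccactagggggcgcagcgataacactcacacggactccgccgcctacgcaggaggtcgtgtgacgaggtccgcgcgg
Glb1: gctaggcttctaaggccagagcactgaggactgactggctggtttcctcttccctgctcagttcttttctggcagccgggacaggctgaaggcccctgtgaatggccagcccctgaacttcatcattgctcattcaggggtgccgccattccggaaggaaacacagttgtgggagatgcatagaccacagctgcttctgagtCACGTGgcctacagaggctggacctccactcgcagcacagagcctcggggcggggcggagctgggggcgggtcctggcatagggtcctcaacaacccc
Gla: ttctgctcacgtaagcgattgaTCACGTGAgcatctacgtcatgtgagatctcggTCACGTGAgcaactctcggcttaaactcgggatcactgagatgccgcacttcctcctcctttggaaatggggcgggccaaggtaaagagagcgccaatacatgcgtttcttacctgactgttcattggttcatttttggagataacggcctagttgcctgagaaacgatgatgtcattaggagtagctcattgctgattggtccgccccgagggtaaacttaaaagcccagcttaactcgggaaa
Naglu: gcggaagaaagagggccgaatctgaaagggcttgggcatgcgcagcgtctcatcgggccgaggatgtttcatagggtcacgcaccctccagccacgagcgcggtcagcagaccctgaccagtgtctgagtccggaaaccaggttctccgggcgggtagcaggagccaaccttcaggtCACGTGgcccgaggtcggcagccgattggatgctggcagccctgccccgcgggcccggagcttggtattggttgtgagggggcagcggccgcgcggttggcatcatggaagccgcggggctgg
Lamp1: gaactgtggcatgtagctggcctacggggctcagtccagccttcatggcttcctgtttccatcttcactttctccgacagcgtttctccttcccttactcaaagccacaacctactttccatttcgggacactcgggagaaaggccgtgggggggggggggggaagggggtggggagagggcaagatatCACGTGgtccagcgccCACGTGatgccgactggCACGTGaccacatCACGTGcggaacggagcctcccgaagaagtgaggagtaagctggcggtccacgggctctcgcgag
The E-box began 140 bases before the start in Gaa, 48 before in Glb1 and 73 before in Naglu. Gla held 2 copies, 227 and 194 bases before the start, and both lay within the 8-letter core. In Lamp1 the copies began 61, 45, 28 and 15 bases before the start, and none lay within the 8-letter core. Both motifs equal their own reverse complement, so both strands were searched at once, and every 8-letter core also counts as an E-box.

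The table of promoters held 49 of the 61 genes. An E-box was present in 16 of these 49, or 32.7%, against 10.3% of the 14033 tested genes in the table and 8.09% of all 27025 genes. The 8-letter core was present in 7 of 49, or 14.3%, against 1.66% of the tested genes. The members called in any comparison had an E-box in 5 of 13 cases and the uncalled members in 11 of 36, or 38.5% and 30.6%. Man2b1, Manba, Arsb, Ctsz, Ctsk, Gm2a, Psap and Atp6v1d had no match in this window. The called genes Ctsb, Ctse and Atp6v1g1 had no promoter entry and could not be searched. The fifth called gene with an E-box was Lgmn, in its second listed promoter. A match is a description of letters and not a bound site.

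The proteases moved in both directions. Of 13 proteases 3 rose and 2 fell in IDH1mut against CTL, with a median difference of 0.09. This was 38.5%, beside 20.7% of all genes and 35.1% of genes above the median level. Ctsb, cathepsin B, a cysteine protease of general protein breakdown, read 9.25, 9.20 and 8.999 in IDH1mut, 9.88, 9.55 and 9.30 in IDH1wt and 10.04, 9.88 and 10.02 in CTL cells. All IDH1mut arrays were below all others, and the difference from CTL was -0.83 ± 0.14 (1.78-fold lower, adjusted p = 0.0017). Ctsz, cathepsin Z, a carboxypeptidase, read 9.92, 9.51 and 9.52 in IDH1mut, 10.27, 10.10 and 10.19 in IDH1wt and 10.25, 10.20 and 10.27 in CTL cells. IDH1mut lay apart from both other groups and was 1.5-fold below CTL (-0.59 ± 0.12, adjusted p = 0.00485).

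Ctse, cathepsin E, is an aspartic protease of endosomes. Its values were 10.70, 10.89 and 10.77 in IDH1mut, 8.93, 10.78 and 10.13 in IDH1wt and 9.26, 9.10 and 9.26 in CTL cells. The IDH1mut arrays lay above all CTL arrays, and the IDH1wt arrays spread from below the CTL values to within the IDH1mut values. IDH1mut was 2.99-fold above CTL (1.58 ± 0.34, adjusted p = 0.0066), the largest fold change of the 61 genes. The median deviation of the 9 erythroid genes from their 9-array means ran in the same order in IDH1wt arrays, at -1.12, 0.71 and 0.03, with 0.74, 0.95 and 0.84 in IDH1mut and -0.72, -0.79 and -0.55 in CTL arrays. Other marker lists shared this order over the IDH1wt arrays. The list of mast cells, basophils and eosinophils was at -0.12, 1.06 and 0.53, and the B cell list at -1.35, -0.07 and -0.53. The monocyte list did not share it, at 0.25, 0.23 and 0.15. On the IDH1mut arrays the mast cell list was at -0.83, -0.33 and -0.20 and the B cell list at 0.43, 0.36 and 1.28. The part of erythroid or other cells in the Ctse values was not tested.

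Lgmn, legumain or asparaginyl endopeptidase, cuts after asparagine and processes several cathepsins. It read 7.29, 6.97 and 7.24 in IDH1mut, 6.46, 7.15 and 7.16 in IDH1wt and 5.96, 6.55 and 5.94 in CTL cells. IDH1mut and CTL arrays did not overlap, and the IDH1wt arrays overlapped both. The difference between IDH1mut and CTL was 1.02 ± 0.21 (2.02-fold higher, adjusted p = 0.00532).

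Ctsk, cathepsin K, is the collagen-degrading protease of osteoclasts. It read 5.84, 5.38 and 5.24 in IDH1mut, 4.63, 5.20 and 5.11 in IDH1wt and 4.75, 4.69 and 4.53 in CTL cells, with IDH1mut arrays above all others and a difference from CTL of 0.83 ± 0.17 (1.78-fold higher, adjusted p = 0.00599). The 8 genes read as osteoclast markers may also be expressed by other blood cells. Of these, 2 rose in IDH1mut against CTL, Mmp9 and Car2, 0 fell, and 6 of the 8 differences were positive. The called share was 25%, beside 20.7% of all genes. At an unadjusted p under 0.05, 3 were higher and 2 lower. Their summed level was 9892 to 10935 in IDH1mut, 6781 to 8849 in IDH1wt and 5960 to 6766 in CTL arrays. Their median deviation overlapped between IDH1mut and CTL arrays, at -0.08 to 0.20 in IDH1mut, -0.03 to 0.11 in IDH1wt and -0.17 to -0.07 in CTL arrays. Oscar, Dcstamp, Ocstamp and Calcr, 4 of the 8, lay at or below the level of the median gene. Beside Lgmn, the macrophage genes C1qa, C1qb, Cd5l and Msr1 were higher and Mrc1 and Gpnmb lower in IDH1mut, and 10 of the 16 differences were positive. The summed macrophage level was 2435 to 3382 in IDH1mut, 3407 to 3701 in IDH1wt and 3414 to 3507 in CTL arrays, while the median deviation of the 16 genes ran the other way between IDH1mut and CTL, at -0.04 to 0.17 in IDH1mut, 0.06 to 0.27 in IDH1wt and -0.26 to -0.05 in CTL arrays. The part of osteoclasts and macrophages in the Ctsk and Lgmn values was not tested. Nor was the part of neutrophils or erythroid cells in the Mmp9 and Car2 values.

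The other 8 proteases did not pass the test in IDH1mut against CTL. Ctsd, cathepsin D, the main aspartic protease of lysosomes, read 11.03, 10.90 and 10.73 in IDH1mut, 10.83, 10.93 and 10.83 in IDH1wt and 10.77, 10.83 and 10.78 in CTL cells. The groups overlapped and the IDH1mut difference from CTL was 0.09 ± 0.10 (adjusted p = 0.573). Ctss, cathepsin S, which trims the class II invariant chain, averaged 11.86 ± 0.24, 12.16 ± 0.07 and 11.87 ± 0.03 in IDH1mut, IDH1wt and CTL cells (SD, n = 3 each). The largest difference among those not called was that of Ctsl, at 0.32 ± 0.14 (adjusted p = 0.138).

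Of 6 genes of lipid breakdown 1 fell in IDH1mut against CTL, or 16.7%, beside 20.7% of all genes and 35.1% of genes above the median level. All 6 differences were negative, from -0.36 to -0.06. Over all 17731 genes 7575 differences were positive. Gm2a, the activator that lifts GM2 ganglioside out of the membrane for hexosaminidase, read 8.72, 8.48 and 8.52 in IDH1mut, 9.07, 8.92 and 8.93 in IDH1wt and 8.89, 8.95 and 8.97 in CTL cells. IDH1mut arrays lay below all others, and the difference from CTL was -0.36 ± 0.10 (1.28-fold lower, adjusted p = 0.0214). That call was lost when CTL replicate 1, 2 or 3 or IDH1mut replicate 2 or 3 was left out, with adjusted p between 0.053 and 0.0789.

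Psap, the precursor of the saposins that help degrade sphingolipids, read 10.77, 10.25 and 10.45 in IDH1mut, 11.004, 11.03 and 11.12 in IDH1wt and 10.89, 10.73 and 10.93 in CTL cells. IDH1mut arrays overlapped those of CTL, since replicate 1 lay within the CTL range, and the difference of -0.36 ± 0.13 did not pass the test (adjusted p = 0.0671). Without IDH1mut replicate 1 it was -0.50 (adjusted p = 0.0106). Asah1, acid ceramidase, and Smpd1, acid sphingomyelinase, differed by -0.06 ± 0.09 and -0.08 ± 0.09 (adjusted p = 0.739 and 0.615).

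No membrane or transport protein was called. The 7 measured genes of this group had differences between IDH1mut and CTL from -0.29 for the cholesterol carrier Npc2 to 0.20 for the receptor Scarb2, with a median of -0.07. At an unadjusted p under 0.05, 0 were higher and 1 lower, Npc2, and leaving out IDH1mut replicate 1 gave 1 call. Lamp1, the most used marker of the lysosomal membrane, read 11.445, 11.16 and 11.33 in IDH1mut, 11.54, 11.55 and 11.70 in IDH1wt and 11.50, 11.453 and 11.50 in CTL cells. The IDH1mut arrays did not overlap either other group, but the difference from CTL was only -0.17 ± 0.10 (adjusted p = 0.265). Lamp2, Npc1 and the calcium channel gene Mcoln1 overlapped between IDH1mut and CTL arrays.

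Neither regulator passed the test. Tfeb, the transcription factor that turns on lysosomal genes in starved cells, read 7.64, 7.43 and 7.10 in IDH1mut, 7.13, 7.18 and 7.31 in IDH1wt and 7.18, 7.25 and 7.18 in CTL cells. The groups overlapped, and the difference between IDH1mut and CTL was 0.19 ± 0.13 (adjusted p = 0.359). Grn, the secreted and lysosomal protein progranulin, read 11.18, 10.94 and 11.15 in IDH1mut, 11.35, 11.37 and 11.34 in IDH1wt and 11.38, 11.23 and 11.38 in CTL cells. Its IDH1mut arrays were the lowest, with a difference from CTL of -0.24 ± 0.10 (adjusted p = 0.104).

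Of the 20 V-ATPase genes 2 were called in IDH1mut against CTL, or 10%, beside 20.7% of all genes. Their median absolute difference was 0.19, beside 0.17 over all genes. Of 12 V1 subunit genes 2 rose and 0 fell, and of 8 V0 subunit genes 0 rose and 0 fell, with differences over the pump from -0.34 for Atp6v1b1 to 0.41 for Atp6v1g1. The V0 subunit gene Atp6v0c was not among these 8 and was not read. At an unadjusted p under 0.05 the 20 genes had 2 higher and 3 lower. Atp6v1g1 and Atp6v1d encode subunits of the peripheral and central stalks of V1. Atp6v1g1 read 10.63, 10.47 and 10.23 in IDH1mut, 10.11, 9.85 and 10.02 in IDH1wt and 10.02, 10.08 and 9.999 in CTL cells. All IDH1mut arrays were above all others, by 0.41 ± 0.12 against CTL (1.33-fold, adjusted p = 0.0266).

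Atp6v1d read 10.05, 10.18 and 10.18 in IDH1mut, 9.75, 9.91 and 9.81 in IDH1wt and 9.81, 9.79 and 9.94 in CTL cells, also with IDH1mut arrays above the rest, by 0.29 ± 0.09 against CTL (1.22-fold, adjusted p = 0.0485). Both calls were fragile. The call of Atp6v1g1 was lost on leaving out CTL replicate 1, 2 or 3 or IDH1mut replicate 1 or 2 (adjusted p between 0.0509 and 0.0891). The call of Atp6v1d was lost on leaving out CTL replicate 1, 2 or 3, IDH1wt replicate 3 or IDH1mut replicate 2 or 3 (adjusted p between 0.0608 and 0.149), and also with arrays centred on their medians or with only the 6 arrays compared in the fit.

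The catalytic A subunit gene Atp6v1a, whose promoter holds the 8-letter core around an E-box that begins 131 bases before the start, read 10.06, 9.97 and 10.005 in IDH1mut, 10.21, 10.12 and 10.11 in IDH1wt and 10.01, 9.90 and 10.12 in CTL cells. IDH1mut and CTL arrays overlapped and their difference was 0.00 ± 0.09 (adjusted p = 0.989). In the V0 sector the proteolipid gene Atp6v0b differed by 0.23 ± 0.11 (adjusted p = 0.158), and Atp6v0d1 by -0.12 ± 0.09 (adjusted p = 0.418). The probe sets of 7 V1 and 3 V0 genes lay at or below the level of the median gene, including Atp6v1e1, Atp6v1b2 and Atp6v1h, whose subunits are widely expressed. RMA values of such probe sets are compressed, so a difference in those genes could be understated.

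**Figure D3:**
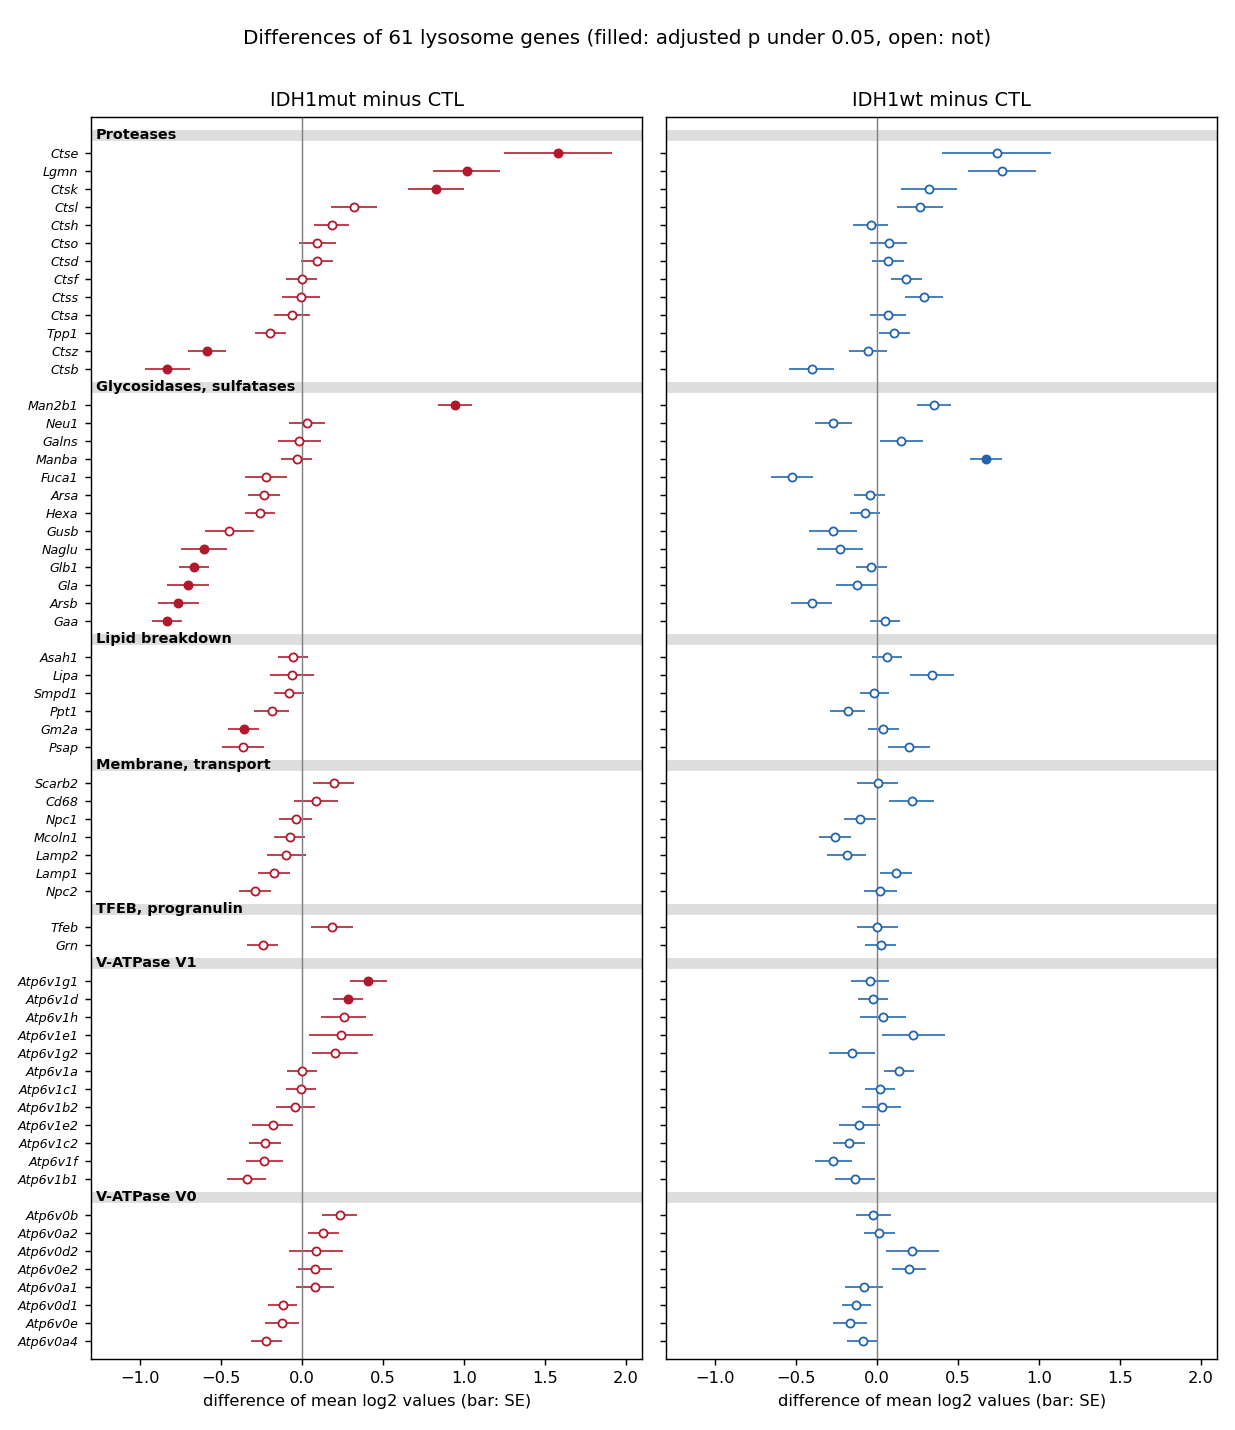
Differences of mean log2 values for all 61 lysosome genes, grouped by role, with IDH1mut minus CTL on the left and IDH1wt minus CTL on the right; bars are SE and filled points have an adjusted p under 0.05. The IDH1mut minus CTL panel spans -0.83 (Gaa) to 1.58 (Ctse) and the pump subunits lie between -0.34 and 0.41, and the IDH1wt minus CTL panel has 1 filled point, Manba.

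In IDH1wt against CTL 1 of the 61 genes changed, Manba, which rose 1.59-fold (0.67 ± 0.10, adjusted p = 0.00594). The 3 IDH1wt arrays were the highest of the 9, and the call held when any 1 array was left out. Over all genes 2.33% were called in this comparison, with 1.62% higher and 0.711% lower, and 3.55% of genes above the median level. The members' share was 1.64%, their median difference was 0.00 against -0.04 over all genes, and at an unadjusted p under 0.05 there were 6 higher and 6 lower.

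Several genes had an IDH1wt mean between those of IDH1mut and CTL without passing the test against CTL. Their IDH1wt differences from CTL were 0.77 ± 0.21 for Lgmn (adjusted p = 0.0824), 0.74 ± 0.34 for Ctse (0.293), -0.40 ± 0.14 for Ctsb (0.168) and 0.35 ± 0.11 for Man2b1 (0.121). The count of calls in this comparison depended on single arrays. Without IDH1wt replicate 1 it was 5, with Ctsb (-0.55, adjusted p = 0.0405), Ctse (1.25, adjusted p = 0.00494), Lgmn (1.00, adjusted p = 0.0185) and the fucosidase gene Fuca1 (-0.65) added, and without CTL replicate 2 it was 3, with Arsb and Lgmn added. The erythroid genes called in this comparison numbered 0 with all arrays and 5 without IDH1wt replicate 1. For Gaa, Glb1, Gla and Ctsz the IDH1wt differences from CTL were 0.05 ± 0.09, -0.03 ± 0.09, -0.12 ± 0.13 and -0.05 ± 0.12, with adjusted p from 0.692 to 0.892. The IDH1mut and IDH1wt comparisons with CTL share their 3 CTL arrays and are therefore not independent of each other.

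Set directly against IDH1wt, IDH1mut cells had 10 of 61 genes called, 3 higher and 7 lower, or 16.4%. Over all genes 13.3% were called, 6.54% higher and 6.78% lower, and 22.8% of genes above the median level. The members' median difference was -0.07, against -0.00 over all genes. Gaa was 1.84-fold lower (-0.88 ± 0.09, adjusted p = 0.000246), Glb1 1.55-fold lower (-0.63 ± 0.09, adjusted p = 0.00177) and Manba 1.63-fold lower (-0.71 ± 0.10, adjusted p = 0.00128). Man2b1 was 1.51-fold higher (0.59 ± 0.11, adjusted p = 0.00456). These 4 calls held when any 1 array was left out.

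The other 6 calls between IDH1mut and IDH1wt each hung on single arrays. Gla was 1.49-fold lower (-0.58 ± 0.13, adjusted p = 0.0146), and this was lost without IDH1wt replicate 1 (adjusted p = 0.0536). Ctsz was 1.45-fold lower (-0.53 ± 0.12, adjusted p = 0.0126), lost without IDH1mut replicate 2 (adjusted p = 0.0523). Psap was 1.48-fold lower (-0.56 ± 0.13, adjusted p = 0.0147), lost without IDH1wt replicate 3 or IDH1mut replicate 2. Gm2a was 1.32-fold lower (-0.40 ± 0.10, adjusted p = 0.0196), lost without IDH1wt replicate 1 or IDH1mut replicate 2 or 3. Atp6v1g1 was 1.37-fold higher (0.45 ± 0.12, adjusted p = 0.0253), lost without IDH1wt replicate 2 or 3 or IDH1mut replicate 1 or 2. Atp6v1d was 1.24-fold higher (0.31 ± 0.09, adjusted p = 0.0479), and of the 9 arrays left out in turn only IDH1wt replicate 2 left its call in place. With only the 6 arrays compared in the fit, Gm2a (adjusted p = 0.0509), Atp6v1g1 and Atp6v1d were not called. The whole count was 5 without IDH1mut replicate 2. For Naglu, Arsb, Ctsb, Ctse, Lgmn and Ctsk, which were called against CTL, adjusted p against IDH1wt lay between 0.065 and 0.508. Single arrays mattered here too, since Ctse was called without IDH1wt replicate 2 (adjusted p = 0.0135), Naglu without IDH1mut replicate 1 (0.0219), Ctsb without IDH1wt replicate 3 (0.0292) and Arsb without CTL replicate 2 (0.0326).

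The IDH1mut arrays also differed among themselves. IDH1mut replicate 1 was the highest of the 3 for 38 of the 61 lysosome genes, or 62.3%, against 35.8% of all genes, and the lowest for 11. The scavenger receptor family member Cd68 read 9.63 there against 9.04 and 9.16 on the other IDH1mut arrays, a gap of 0.53 to their mean. Lipa, acid lipase, read 9.08 against 8.59 and 8.50, Scarb2 8.81 against 8.33 and 8.37, and Ctss 12.13 against 11.68 and 11.77. Among the IDH1mut arrays the monocyte and macrophage lists were also highest on replicate 1, and the late neutrophil list was lowest there. The median deviation from the 9-array means was 0.17 for the macrophage list on IDH1mut replicate 1 and -0.02 and -0.04 on replicates 2 and 3. For the late neutrophil list it was 0.36, 0.48 and 0.44. Other lists were also at an extreme on IDH1mut replicate 1. For the osteoclast list it was 0.20, -0.08 and 0.05. For the list of mast cells, basophils and eosinophils it was -0.83, -0.33 and -0.20. For the dendritic cell and class II list it was -0.36, -0.16 and -0.06. The erythroid, T and NK cell and progenitor lists were also lowest on replicate 1. For the monocyte list it was 0.08 on IDH1mut replicate 1 and -0.64 and -0.50 on replicates 2 and 3, with 0.25, 0.23 and 0.15 in IDH1wt and 0.10, 0.16 and 0.19 in CTL arrays. The summed monocyte level was 6322 to 11469 in IDH1mut, 12233 to 12704 in IDH1wt and 11573 to 12282 in CTL arrays. The part of monocytes, macrophages or other cells in these gaps was not tested.

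**Figure D4:**
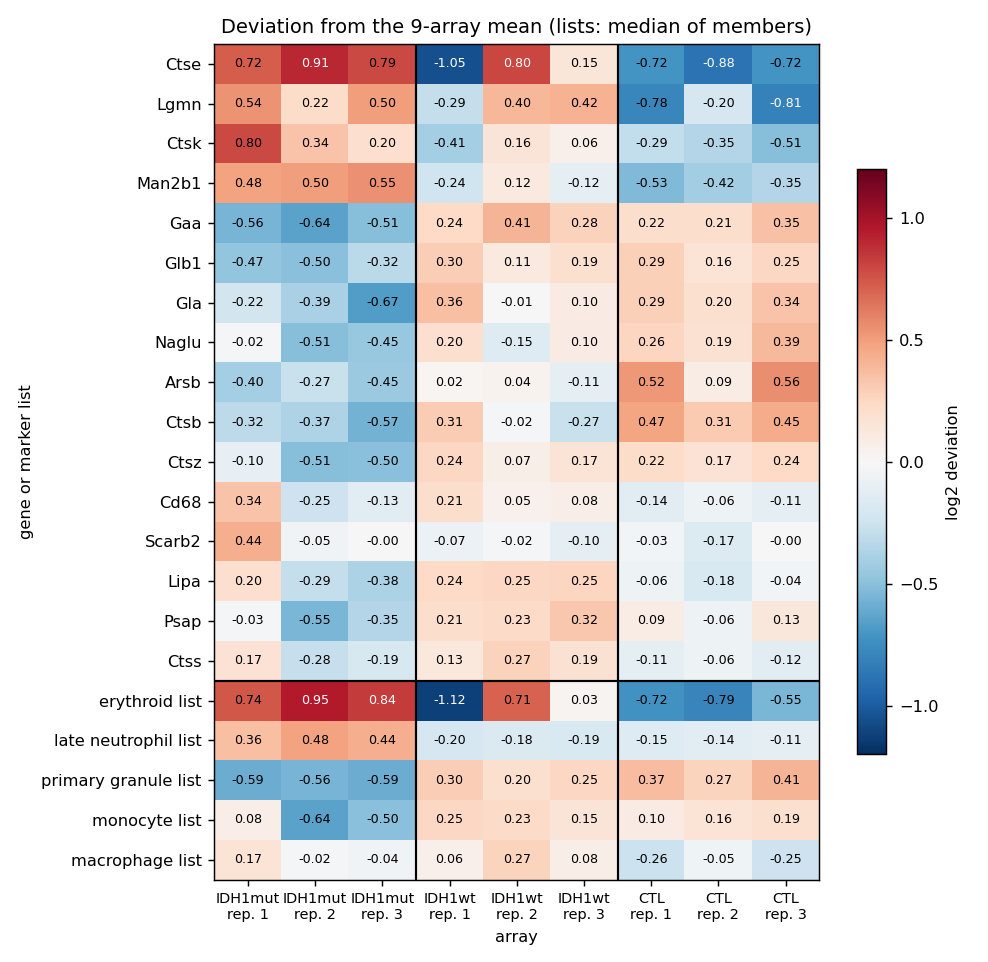
Log2 deviation of each gene from its mean over the 9 arrays (colour scale), for 16 lysosome genes named in the text above the black line and for the median of marker lists below it, with IDH1mut, IDH1wt and CTL arrays from left to right. Ctse and the erythroid list are low on IDH1wt replicate 1 and higher on the other 2 IDH1wt arrays, and the monocyte list is at 0.08, -0.64 and -0.50 on the 3 IDH1mut arrays.

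Other genes of the lysosome were read as a wider list, with 119 of 135 measured. In IDH1mut against CTL 23 were higher and 24 lower, or 39.5%, beside 20.7% of all genes and 35.1% of genes above the median level, and the median difference was 0.00. This count was 29 without CTL replicate 1 or without CTL replicate 3. Among 25 further hydrolases 6 rose and 5 fell, or 44%, to be read beside the same 20.7% and 35.1%. Smpdl3a, a phosphodiesterase related to acid sphingomyelinase, averaged 9.45 ± 0.45 in IDH1mut, 11.02 ± 0.12 in IDH1wt and 10.97 ± 0.12 in CTL cells (SD, n = 3 each), a difference from CTL of -1.52 ± 0.18 (adjusted p = 0.000244). Plbd1, a phospholipase B-like protein, rose by 1.03 ± 0.14 (adjusted p = 0.000578), and Pla2g15, the lysosomal phospholipase, fell by 1.06 on the log2 scale (adjusted p = 0.000199).

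Among 34 further membrane proteins 5 rose and 5 fell, or 29.4%, beside 20.7% of all genes and 35.1% of genes above the median level. Slc11a1, the phagosomal metal transporter also called Nramp1, averaged 8.74 ± 0.20 in IDH1mut, 8.05 ± 0.11 in IDH1wt and 7.38 ± 0.05 in CTL cells (SD, n = 3 each). It rose by 1.36 ± 0.11 in IDH1mut (adjusted p = 3.09e-05). The peptide and histidine transporter Slc15a3 rose by 1.77 ± 0.20 (adjusted p = 0.00017) and Cln3, the membrane protein lost in juvenile Batten disease, by 0.93 ± 0.09 (adjusted p = 9.41e-05). The genes that encode parts of the pump under other names were not called in this comparison: Tcirg1, the a3 subunit, differed by 0.18 ± 0.09, Atp6ap1 by -0.17 ± 0.10 and Atp6ap2 by -0.11 ± 0.09.

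Of 18 sorting genes 4 rose and 6 fell in IDH1mut against CTL, or 55.6%, beside 20.7% of all genes and 35.1% of genes above the median level. Vps29 rose by 0.87 (adjusted p = 0.000552) and Sorl1 by 0.64 (adjusted p = 0.000799) in that comparison. Igf2r, the cation-independent mannose 6-phosphate receptor, averaged 8.53 ± 0.20 in IDH1mut, 8.56 ± 0.12 in IDH1wt and 9.21 ± 0.11 in CTL cells (SD, n = 3 each). Both IDH1 groups were lower than CTL, with differences of -0.68 ± 0.12 in IDH1mut (adjusted p = 0.0022) and -0.65 ± 0.12 in IDH1wt (adjusted p = 0.0175). The IDH1wt call was lost without CTL replicate 1 or 2 or IDH1wt replicate 3. The cation-dependent receptor M6pr differed by 0.03 ± 0.12 in IDH1mut (adjusted p = 0.886).

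Of 22 genes of fusion and biogenesis 3 rose and 4 fell. This was 31.8%, beside 20.7% of all genes and 35.1% of genes above the median level. They were led by Lyst, the gene mutated in Chediak-Higashi syndrome, which rose by 0.85 ± 0.10 (adjusted p = 0.000258). Of 20 genes of nutrient sensing and the TFEB family 5 rose and 4 fell, or 45%. Lamtor2, a subunit of the complex that anchors mTORC1 to lysosomes, fell by 0.89 on the log2 scale (adjusted p = 0.000913). Lamtor3, of the same complex, rose by 0.42 (adjusted p = 0.0104), and Fnip2 rose by 0.81 (adjusted p = 0.00361). Tfec, a relative of Tfeb, read 8.57, 7.95 and 8.34 in IDH1mut and averaged 9.07 ± 0.24 in IDH1wt and 9.17 ± 0.09 in CTL cells, a difference from CTL of -0.88 ± 0.16 (adjusted p = 0.00289).

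In IDH1wt against CTL the wider list had 3 genes higher and 2 lower, or 4.20%, beside 2.33% of all genes and 3.55% of genes above the median level. They were Slc15a3 (0.99, adjusted p = 0.025), Slc11a1 (0.67, adjusted p = 0.0118), Vps29 (0.72, adjusted p = 0.0108), Igf2r and Pla2g15 (-0.54, adjusted p = 0.0424). The count was 1 without CTL replicate 1 or IDH1wt replicate 3, 2 without CTL replicate 3 and 3 without IDH1wt replicate 2. In IDH1mut against IDH1wt 11 were higher and 16 lower, or 22.7%, beside 13.3% of all genes and 22.8% of genes above the median level, and 17 were called without IDH1wt replicate 3. Smpdl3a differed between the IDH1 groups by -1.57 (adjusted p = 0.000424), Plbd1 by 1.37 (adjusted p = 0.000246) and Lyst by 0.94 (adjusted p = 0.000314).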

How the data were processed

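RNA of 9 samples was hybridised to Affymetrix mouse arrays, 3 each of IDH1mut, IDH1wt and CTL, grouped by the labels. The authors deposited log2 expression values per probe set, made with RMA per the submitters' processing notes, which give no version. RMA corrects background, quantile-normalises the arrays and summarises probes, so folds of dim genes are compressed. The table holds about 1 probe set for each gene, and the sources used here do not say how the others were removed. Of 20877 probe sets 17815 had 1 gene symbol in the platform annotation, 244 had several and 2818 had none; the last 2 kinds were not used. Where a gene had several, the brightest on average was kept, which left 17731 genes.

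One linear model with group means, covering the 9 arrays, was fitted by limma 3.58.1 (R 4.3.3; lmFit, contrasts.fit, eBayes). Its 3 contrasts were tested two-sided with Benjamini-Hochberg adjustment over all genes and a threshold of 0.05. The procedure was tested on simulated data. Beside correct signs, that check required recovery only of changes larger than any difference of a lysosome member here. An exact permutation test of 3 arrays against 3 cannot go below p = 0.1 and was not used. The precision is limited by the 3 arrays per group. No pair of arrays held identical values.

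The members and lists were chosen with earlier results of these data known. Called members were named, with values on every array for the 16 called in any comparison and for Tfeb, Grn, Lamp1, Ctsd, Psap and Atp6v1a. Other members were named by role and by the largest differences after their values were seen. Of the other lysosome genes up to 4 per list with the largest called differences could be named, and Tcirg1, Atp6ap1, Atp6ap2 and M6pr were added after their values were seen. Same-numbered arrays of different groups did not deviate together (correlations from -0.0857 to 0.0257), so replicate numbers were not used as a block in the main fit. Alternatives were other probe set rules, a filter on dim genes, repeated quantile normalisation, centring, fits on 6 arrays, a trended robust variance, a replicate block, a fold threshold and leaving out each array. Promoter sequences came from RefSeq (GRCm38.p6), matched by gene identifier for 49 members.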

Additional observations from a re-analysis of the deposited data

How the results depend on the processing

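No called difference of a lysosome member, or of another lysosome gene named as called, changed sign under any alternative. Several alternatives could not move a difference of group means. These were the filter on dim genes, the fit on only the arrays compared, the trended variance, the replicate block and the fold threshold. Leaving out an array of the group not compared could not move it either, nor, for the members, could the other probe set rules. For the members the sign was thus tested only by repeated normalisation, centring and leaving out an array of a compared group. Some differences near 0 that were not called did change sign. Those of Atp6v1a and Ctss in IDH1mut against CTL did so when single arrays were left out. Of 51 alternative counts of called members 43 lay within 1.5 times the count reported. In IDH1wt against CTL the count of 1 became 2 among genes above the median level and 2 under a trended, robust variance model, and it ranged from 1 to 5 when single arrays were left out. In IDH1mut against IDH1wt the count of 10 became 18 among genes above the median level, 17 under a trended, robust variance model and 4 with an added threshold of 1.5-fold, and it ranged from 5 to 12 when single arrays were left out. The IDH1mut against CTL count of 14 became 20, 19 and 11 under these same 3 settings and ranged from 11 to 16 without single arrays. Hexa, Npc2, Psap, Grn and Gusb were called as lower in IDH1mut than in CTL both among genes above the median level and under the trended model. With the replicate number as a block the counts were 14 in IDH1mut against CTL, 1 in IDH1wt against CTL and 9 in IDH1mut against IDH1wt, and the block gave Gusb a call in IDH1mut against CTL (adjusted p = 0.0472) and ended the calls of Atp6v1d in both comparisons that called it; the samples share only a number. The filter on dim genes tested fewer genes and also refitted the model on those alone, which estimates its variances anew. The fold threshold added a second criterion. The cause of the shifts in the counts was not tested. Without detection calls, dim genes such as Galns, Atp6v1e1 and Atp6v1h cannot be told from background, and no depth is defined for arrays.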
